A study of Mus musculus with 8 samples.

Results

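The genes described here are 10 genes of glycolysis and the hypoxia response: the glucose transporter gene Slc2a1, the glycolytic enzyme genes Hk2, Gpi1, Aldoa, Tpi1, Pgk1, Pkm and Ldha, the transcription factor gene Hif1a and the oxygen sensor gene Egln3. They were picked by symbol from the 51810 genes of the count table, with earlier results of these data known, and all 10 were among the 16237 genes that passed the filter on low counts. The 8 libraries hold RNA of microglia from wild-type mice in 4 groups of 2: white matter at 4 months, grey matter at 4 months, white matter at 21 months and grey matter at 21 months. White matter is the corpus callosum. Myelin was removed on a Percoll gradient and cells were pulled out with magnetic beads against CD11b, which other myeloid cells carry too, so a library can hold more than microglia. The labels name the corpus callosum as region for the grey matter samples as well, so white and grey matter were told apart by title and tissue label alone. Whether the paired libraries in a group stem from different animals is not stated, and p-values here thus reflect library-to-library spread that may be technical.

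Glycolysis turns glucose into pyruvate in the cytosol and yields ATP without oxygen; lactate dehydrogenase then reduces pyruvate to lactate and lets the pathway run on. Hif1a encodes the oxygen-labile subunit of hypoxia-inducible factor, which prolyl hydroxylases such as Egln3 mark for degradation when oxygen is present. The stable factor binds the core letters ACGTG or GCGTG near genes of glucose uptake and glycolysis, and near Egln3. Microglia raise glycolysis when activated by inflammatory stimuli.

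For that reason the 250 bases before the RefSeq start sites of the 10 genes were searched for both cores on both strands (build GRCm38.p6; a palindromic CACGTG counts on each strand). The window of each gene is the one nearest to the start of a principal GENCODE transcript. Of the 10 windows, 7 held ACGTG and 1 held GCGTG, and 7 held either. Among all 32851 RefSeq windows of that length, 16.6% held ACGTG, 28.2% held GCGTG and 38.6% held either. Ldha had 5 cores, Hif1a 3, Slc2a1, Hk2 and Pgk1 2 each, Aldoa and Egln3 1 each, and Gpi1, Tpi1 and Pkm 0. Counts differed in other RefSeq windows. Another Ldha window, 49 bases from a principal start against 35, held 1 GCGTG and 0 ACGTG, and another Pkm window 1 ACGTG. For the Ldha, Hif1a and Egln3 windows counted here, the bases just after the start site were not found in GENCODE transcripts of the gene. In Slc2a1, Tpi1 and Pkm the window takes in 34, 138 and 208 bases of GENCODE transcripts. The windows of 4 genes without such bases are printed because they hold the regulator Hif1a, the oxygen sensor Egln3, which differed most between the regions at 21 months, Aldoa, a called enzyme gene, and Ldha, with the most cores; cores are in capitals, on either strand. They lie at chr7:126799255-126799504 on the minus strand (Aldoa), chr7:46845554-46845803 on the plus strand (Ldha), chr12:73907617-73907866 on the plus strand (Hif1a) and chr12:54203875-54204124 on the minus strand (Egln3).
Aldoa: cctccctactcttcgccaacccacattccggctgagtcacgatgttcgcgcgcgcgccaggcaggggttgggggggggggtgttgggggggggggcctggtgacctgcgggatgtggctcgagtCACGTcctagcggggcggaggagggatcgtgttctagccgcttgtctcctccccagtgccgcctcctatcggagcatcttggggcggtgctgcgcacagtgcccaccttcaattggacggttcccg
Ldha: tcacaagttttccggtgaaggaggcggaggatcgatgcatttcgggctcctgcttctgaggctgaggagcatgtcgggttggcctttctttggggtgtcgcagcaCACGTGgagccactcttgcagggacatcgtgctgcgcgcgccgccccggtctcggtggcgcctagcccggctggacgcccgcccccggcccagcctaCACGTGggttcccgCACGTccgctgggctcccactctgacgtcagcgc
Hif1a: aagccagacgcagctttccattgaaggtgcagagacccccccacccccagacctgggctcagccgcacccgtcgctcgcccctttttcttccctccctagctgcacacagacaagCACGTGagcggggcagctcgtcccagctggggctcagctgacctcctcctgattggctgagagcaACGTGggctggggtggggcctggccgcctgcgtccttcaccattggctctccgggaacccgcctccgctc
Egln3: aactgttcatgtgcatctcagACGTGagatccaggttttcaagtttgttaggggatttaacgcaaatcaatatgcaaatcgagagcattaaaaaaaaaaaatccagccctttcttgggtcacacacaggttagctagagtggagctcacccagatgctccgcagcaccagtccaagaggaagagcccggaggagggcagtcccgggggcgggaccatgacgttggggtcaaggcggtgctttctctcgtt
A match of these letters is a description of the window, not a bound site.

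Library totals ran from 3273258 to 6315782 counts. Levels below are counts scaled to depth by TMM (CPM), which are not comparable between genes because they are not divided by length. Replicate 1 of 4-month white matter stood apart. Its summed oligodendrocyte marker level was 63570 CPM against 198.7 to 796.2 in the other 7 libraries, its summed microglia marker level was 3108 against 12190 to 18350, and CT010467.1 and AY036118, a pair of abundant transcripts, made up 38.8% of its total against 6.78% to 20.7%. None of the microglia markers was at 0 in any library. Among the 8 libraries this one had the highest levels of Slc2a1, Gpi1, Aldoa and Pgk1 and the lowest of Hk2, Ldha and Hif1a, so the values of the 10 genes that rest on it are given with and without it. Replicate 1 of 4-month grey matter had the highest summed red blood cell level, 26120 CPM against 185.5 to 6946 in the others, and the highest neutrophil level, 4234 CPM against 81.7 to 2168.

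Several of these genes have near-identical copies in the genome, and how the deposited counts treat shared reads is not given in the sources used here. Gene models of the table whose GENCODE transcripts match at 90% identity or more over 300 bases or more were sought. Pgk1 had the largest share of joint counts in copies. Pgk1-rs7 and Gm5537, each 100% identical over 1255 and 1252 bases, carried 497 and 489 counts over all libraries against 342 for Pgk1 itself. Whether these counts stem from shared reads was not tested. The copies held 74.2% of the joint Pgk1 counts, 62.3% for Gpi1 (Gm1840), 51.7% for Aldoa (6 copies, Aldoart1 with 2083 counts first), 39% for Pkm (6 copies, Gm6560 with 2364 counts first), 17.7% for Tpi1 and 13.8% for Ldha. Slc2a1, Hk2, Hif1a and Egln3 had no such copy. Values of the 6 enzyme genes are therefore uncertain in level, and log2 fold changes with the copies added are given in each comparison.

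**Figure D1:**
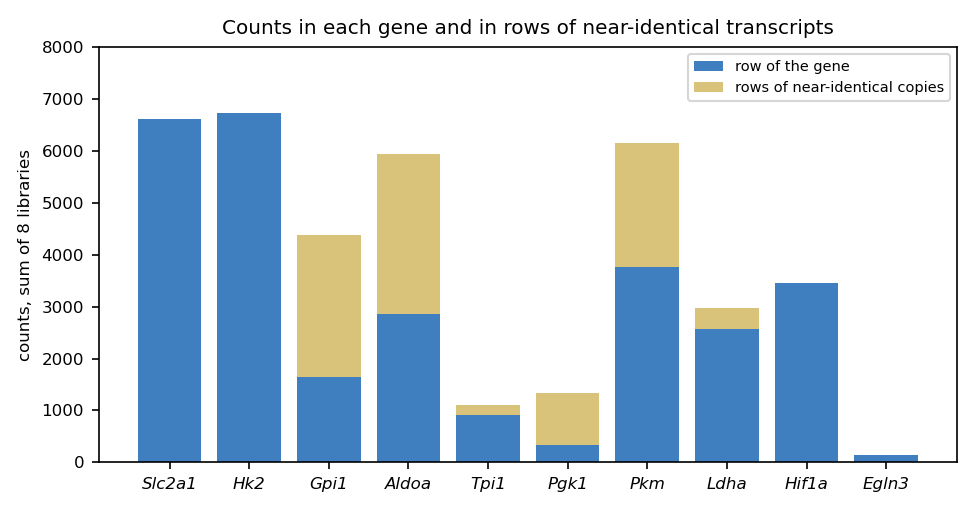
Counts summed over the 8 libraries for each of the 10 genes (blue) and for the gene models that match their transcripts closely (yellow); the y axis is counts, starting at 0. The copies hold more counts than the gene itself for Gpi1, Aldoa and Pgk1.

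At 21 months all 10 genes had both white matter libraries above both grey matter libraries, against 20.9% of the 16237 genes tested that were arranged this way (0 of the 10 was arranged the other way, against 19.5%). The median log2 fold change of the 10 was 0.82 in the fit of all 8 libraries, beside 0.02 for all genes. No gene was called in that fit, so 0 of the 10 was called against 0% of all genes (edgeR's quasi-likelihood test with Benjamini-Hochberg adjustment, called at adjusted p under 0.05; 381 genes and 3 of the 10 had an unadjusted p under 0.05, and DESeq2 called 48 genes). With only the 4 libraries of 21 months, 5 of the 10 were called higher in white matter, Slc2a1, Aldoa, Tpi1, Pkm and Egln3, where 0.985% of 14717 genes were called higher; 0 of the 10 was called lower, against 0.591%. The fold changes barely differ between the 2 fits, and the shared estimate of spread does: the common dispersion was 0.257 with all 8 libraries, 0.0503 with the 21-month libraries and 0.126 with all but replicate 1 of 4-month white matter. Without that one library, 0 of the 10 was called in the fit of the other 7, in which 0.0742% of 17509 genes were called higher and 0.0343% lower. In bulk RNA, fewer cells of a type and less RNA per cell cannot be told apart.

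**Figure D2:**
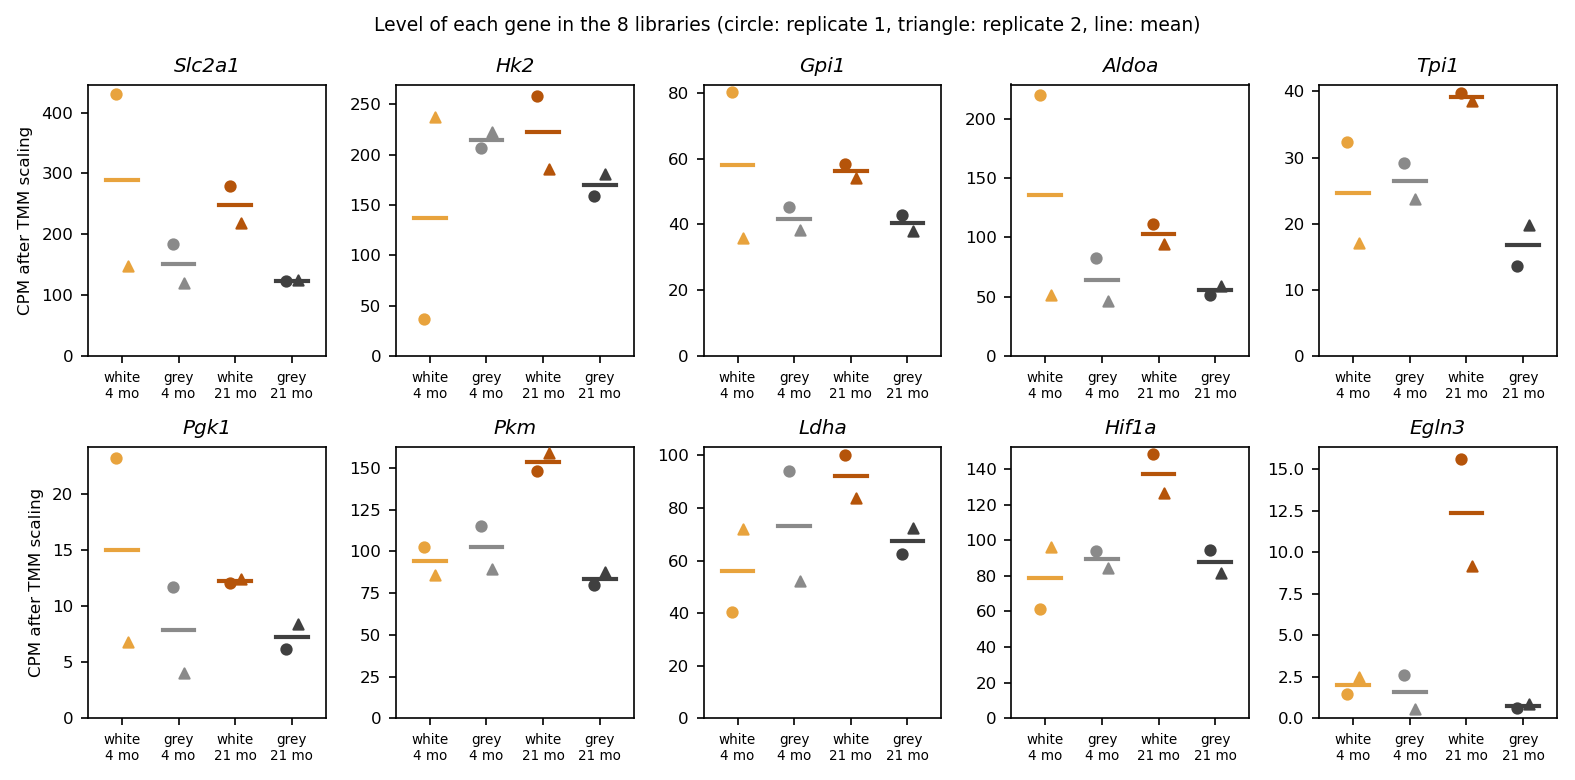
Level of each gene in CPM after TMM scaling (y axis, from 0, separate for each gene) in the 4 groups; circles are replicate 1, triangles replicate 2 and lines the group means. At 21 months both white matter libraries lie above both grey matter libraries in all 10 panels, and the 2 libraries of 4-month white matter lie far apart for Slc2a1, Hk2, Aldoa and Pgk1.

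Slc2a1, the glucose transporter of most cells and of brain endothelium, stood at 278.9 and 218.5 CPM in 21-month white matter and 123.6 and 124.2 in the grey. The grey matter libraries were nearly equal and the white matter libraries were both higher. The log2 fold change was 0.997 ± 0.175 (SE, n = 2 libraries per group; adjusted p = 0.0190, edgeR) with the 21-month libraries and 1.005 ± 0.543 (adjusted p = 1, edgeR) with all 8. The summed choroid plexus marker level was 400.9 and 12100 CPM in the white matter libraries and 477.6 and 374.9 in grey matter, in the same order of libraries as Slc2a1 above. The summed endothelial level was 81.36 and 195.4 CPM in white and 108.7 and 103 in grey matter, with Cldn5 at 0 in white matter replicate 1. The part of these cells in the Slc2a1 values was not tested.

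Hk2 encodes the inducible hexokinase that traps glucose in the cell. It stood at 258.5 and 186 CPM in white and 158.5 and 180.6 in grey matter at 21 months, so the groups came within a few units of each other. The log2 fold change was 0.38 ± 0.191 (adjusted p = 0.513, edgeR, 21-month libraries). Gpi1, the isomerase of the next step, stood at 58.42 and 54.13 CPM in white and 42.78 and 37.96 in grey matter. The groups were apart, with a log2 fold change of 0.47 ± 0.191 that was not called (adjusted p = 0.376, edgeR, 21-month libraries); with its copy added it was 0.49 (adjusted p = 0.215, edgeR).

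Aldoa, which splits the phosphorylated hexose into triose phosphates, stood at 111.4 and 94.12 CPM in white and 51.89 and 59.45 in grey matter at 21 months. Both white matter libraries were far above the grey matter ones. The log2 fold change was 0.88 ± 0.179 (adjusted p = 0.0409, edgeR, 21-month libraries) and 0.85 with the copies added (adjusted p = 0.0243, edgeR). Tpi1, which interconverts the triose phosphates, stood at 39.74 and 38.49 CPM in white and 13.67 and 19.82 in grey matter. Its white matter libraries agreed closely, and its log2 fold change of 1.23 ± 0.256 was called (adjusted p = 0.0456, edgeR, 21-month libraries), also with its copy added (1.16, adjusted p = 0.0435, edgeR).

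Pgk1, which makes the first ATP of the lower pathway, stood at 12.06 and 12.42 CPM in white and 6.14 and 8.374 in grey matter. The groups were apart but the counts were low, and the log2 fold change of 0.75 ± 0.356 was not called (adjusted p = 0.480, edgeR, 21-month libraries). With Pgk1-rs7 and Gm5537 added, the levels were 47.07 and 61.83 CPM in white and 25.16 and 22.33 in grey matter, and the log2 fold change of 1.18 ± 0.222 was called (adjusted p = 0.027, edgeR, 21-month libraries). This alternative was chosen after the data were seen. Counting the copies thus changed the call for Pgk1.

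Pkm, pyruvate kinase of the last ATP-yielding step, stood at 148.1 and 158.7 CPM in white and 79.62 and 87.36 in grey matter at 21 months. Libraries of a region lay close together and far from the other region, with a log2 fold change of 0.87 ± 0.160 (adjusted p = 0.0238, edgeR, 21-month libraries); with the copies added it was 0.79 (adjusted p = 0.0438, edgeR). Ldha, a subunit of lactate dehydrogenase, stood at 100.3 and 83.69 CPM in white and 62.59 and 72.29 in grey matter. The gap between the groups was narrow, and the log2 fold change of 0.44 ± 0.180 was not called (adjusted p = 0.369, edgeR, 21-month libraries), nor was that of 0.41 with the copies added (adjusted p = 0.394, edgeR).

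Hif1a stood at 148.1 and 126.6 CPM in white and 94.48 and 81.5 in grey matter at 21 months. The 2 white matter libraries were the highest of all 8 for this gene. Its log2 fold change of 0.63 ± 0.173 was not called (adjusted p = 0.133, edgeR, 21-month libraries), but passed the threshold without a filter on low counts or with the replicate number as a block. The table measures RNA, and the abundance of the HIF protein, which oxygen sets, was not measured.

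Egln3 had the largest fold change of the 10 and the lowest counts. It had 66 and 37 counts in the white and 3 and 3 in the grey matter libraries at 21 months, which is 15.61 and 9.188 CPM against 0.5942 and 0.8374. The 2 libraries of 21-month white matter were the highest of all 8, and the 6 others lay between 0.5485 and 2.616 CPM. Pooled over the 2 libraries of a group, the ratio of white to grey matter was 17.9 (95% exact conditional interval 7.97 to 50, which covers counting error only). The log2 fold change was 4.085 ± 0.578 (adjusted p = 0.00741, edgeR, 21-month libraries), 4.08 ± 0.925 with all 8 libraries (adjusted p = 1, edgeR) and 4.09 ± 0.841 without replicate 1 of 4-month white matter (adjusted p = 0.17, edgeR). DESeq2 on all 8 libraries called it, with an adjusted p of 0.0448.

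**Figure D3:**
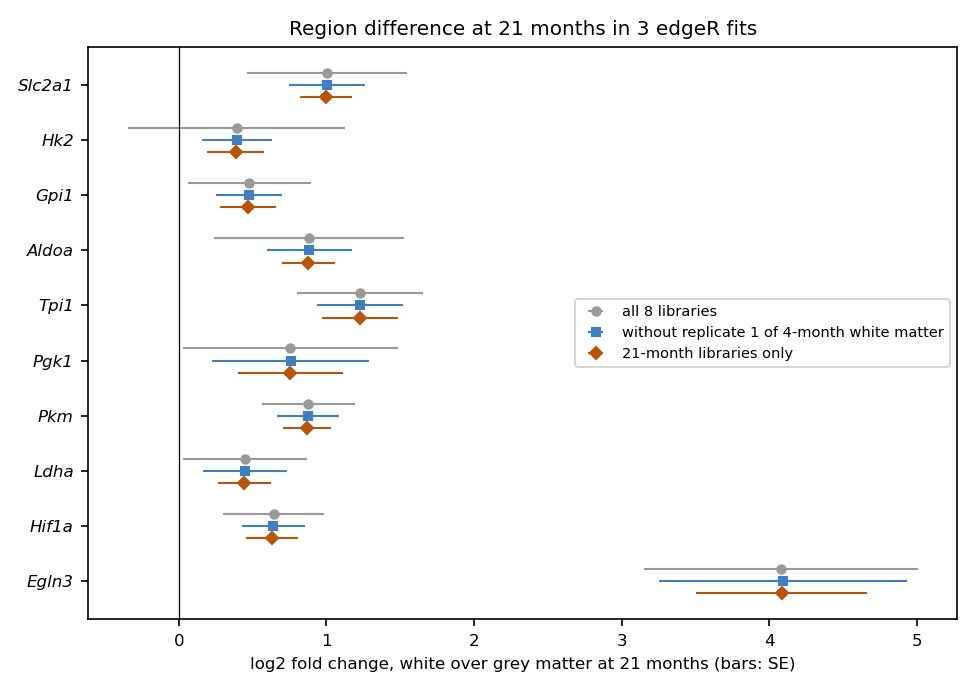
Log2 fold change of white over grey matter at 21 months (x axis) for each gene, in 3 edgeR fits: all 8 libraries (grey circles), all but replicate 1 of 4-month white matter (blue squares) and the 21-month libraries alone (orange diamonds); bars are standard errors. The estimates of a gene nearly coincide while the bars shorten from the first fit to the last, and Egln3 lies near 4.08 in each.

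Over 25 alternatives, all 10 genes stayed higher in white matter at 21 months, though values moved: that of Hk2 ran from 0.106 to 0.613 on the log2 scale, Pgk1 from 0.53 to 1.20, Ldha from 0.28 to 0.58 and Egln3 from 3.62 to 4.42. The call was reached in 9 of them for Slc2a1 (adjusted p from 3e-06 to 1), 8 for Aldoa (from 0.000502 to 1), 5 for Tpi1 (from 0.000521 to 1), 9 for Pkm (from 0.000184 to 1) and 12 for Egln3 (from 4.31e-09 to 1). Within the 21-month libraries, 0 of the 10 was called without grey matter replicate 1 (0.539% of all genes called), and 1 of them, Egln3, without grey matter replicate 2 (0.886% of all genes). Without white matter replicate 1 (2.88% of all genes called), 3 were called, Slc2a1, Pkm and Egln3, and without white matter replicate 2 (2.59%) these and Aldoa. Each of these fits has a lone library in one group, which is assumed to vary like the other group. All 25 alternatives draw on the 21-month libraries, whose groups did not overlap for any of the 10 genes. Their shared sign is thus no independent support. All calls of Slc2a1, Aldoa, Tpi1 and Pkm came from fits of the 21-month libraries alone, most of them chosen after the data were seen. The number of calls is thus no measure of support either.

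Markers of other cells also differed between these libraries at 21 months. The summed level of 10 neutrophil markers was 304.2 and 81.7 CPM in white and 2168 and 1871 in grey matter, with Ly6g at 0 in 1 white matter library. Summed monocyte markers were at 218.8 and 187.5 CPM against 631.8 and 456.6, and border macrophage markers at 206 and 315.9 against 480.7 and 508.6, with Lyve1 and Cd209f at 0 in 1 white matter library. Oligodendrocyte markers were at 333.5 and 320.3 against 224.2 and 319. Microglia markers overlapped, at 12260 and 12310 in white and 12190 and 14650 in grey matter. Their part in the values of the 10 genes was not tested.

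Other genes of the pathway varied in direction. In the fit of the 21-month libraries, 15 of 25 other transporter and glycolysis genes had a log2 fold change above 0, against 50.8% of all genes, with a median of 0.19 beside 0.007; 0 was called higher and 1 lower, where 0.985% and 0.591% of all genes were. That gene was Slc2a3, the high-affinity glucose transporter of neurons and white blood cells, at 23.65 and 16.89 CPM in white and 68.53 and 54.15 in grey matter (log2 fold change -1.61 ± 0.243, adjusted p = 0.00923, edgeR). It was called lower in white matter, and Slc2a1 higher. By library, 10 of the 25 were higher in both white matter libraries and 4 lower, against 20.9% and 19.5% of all genes. Among them Pfkfb3, which makes the activator of phosphofructokinase, was at 666 and 538.1 CPM in white and 379.9 and 379.6 in grey matter (log2 fold change 0.66 ± 0.171, adjusted p = 0.112, edgeR), and Pgam1, a phosphoglycerate mutase, at 69.06 and 75.99 against 46.94 and 46.05 (0.63 ± 0.177, adjusted p = 0.141, edgeR). Both were above grey matter in each library without being called. The 4 lower genes were Slc2a3, Adpgk, Slc2a5 and Pfkfb2, of which only Slc2a3 was called. Adpgk was at 27.67 and 17.88 CPM in white and 61.2 and 42.98 in grey matter. Slc2a5 was at 82.55 and 118.5 against 172.3 and 182.8, and Pfkfb2 at 14.66 and 13.66 against 20.8 and 16.19. Gapdh, the enzyme between Tpi1 and Pgk1, was at 59.37 and 55.38 CPM in white and 55.86 and 56.66 in grey matter, a log2 fold change of 0.02 ± 0.178. Its libraries overlapped, unlike those of Tpi1 and Pgk1. Near-identical copies were sought for the 10 genes alone, so counts in copies of Gapdh are not known here. Pfkfb3, Pgam1, Gapdh and the lower genes other than Slc2a3 were chosen after their values were seen.

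Genes of the pentose phosphate pathway, glycogen and pyruvate entry had 14 of 21 log2 fold changes above 0, against 50.8% of all genes, and a median of 0.10. By library, 8 of 22 were higher in both white matter libraries and 2 lower, against 20.9% and 19.5% of all genes. Again 0 was called higher and 1 lower, against 0.985% and 0.591% of all genes. This was Pygl, a glycogen phosphorylase, at 13.01 and 10.93 CPM in white and 28.72 and 29.31 in grey matter (log2 fold change -1.28 ± 0.272, adjusted p = 0.0483, edgeR, 21-month libraries). Of 15 other oxygen sensing genes 11 were above 0, against 50.8% of all genes, with a median of 0.115 and 0 called. By library, 1 of the 15 was higher in both white matter libraries and 3 lower, against 20.9% and 19.5% of all genes. Vhl, which recruits the ligase for hydroxylated HIF, had 0.43 ± 0.426 and the inhibitory subunit Hif3a -1.33 ± 0.881 in the fit of all 8 libraries.

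Of 24 HIF targets outside glycolysis, 17 were above 0, against 50.8% of all genes, with a median of 0.35. By library, 9 of the 24 were higher in both white matter libraries and 1 lower, against 20.9% and 19.5% of all genes. In the fit, 2 were called higher and 0 lower, beside 0.985% and 0.591% of all genes. Lox, a collagen cross-linking enzyme, stood at 24.13 and 14.65 CPM in white and 1.387 and 0.2791 in grey matter at 21 months (log2 fold change 4.37 ± 0.572, adjusted p = 0.00543, edgeR, 21-month libraries). Vegfa, the angiogenic growth factor, stood at 66.94 and 56.12 CPM in white and 27.14 and 22.05 in grey matter (log2 fold change 1.31 ± 0.216, adjusted p = 0.0144, edgeR, 21-month libraries). Both were higher in each white matter library. No gene of these 4 lists was called in the fit of all 8 libraries.

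**Figure D4:**
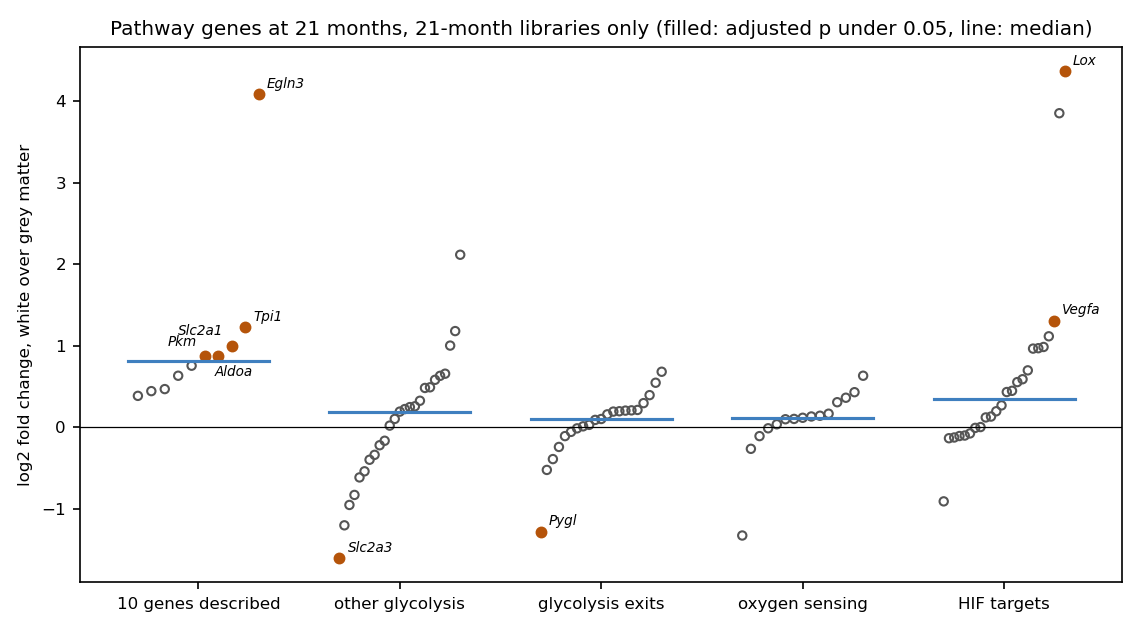
Log2 fold change of white over grey matter at 21 months (y axis) in the fit of the 21-month libraries for the 10 genes and 4 further lists of pathway genes (x axis, ordered by value within a list); filled points have an adjusted p under 0.05 and blue lines are medians. The 10 genes all lie above 0, with a median of 0.81, while the other lists straddle it.

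At 4 months the regions gave no such order: 0 of the 10 genes had white matter libraries all above grey matter, where 13.4% of all genes did, and 0 had them all below, where 15.5% did (2 with scaling by library size alone). Slc2a1 stood at 430.6 and 147.3 CPM in white and 183.8 and 120.1 in grey matter, and Aldoa at 220.2 and 51.68 against 82.67 and 46.26. For both genes the second white matter library lay within the grey matter range and only the first lay above it. Hk2 was at 37.07 and 237.1 in white and 206.9 and 222 in grey matter, so its first white matter library was the lowest. Tpi1 was at 32.34 and 17.06 against 29.13 and 23.77, and Pkm at 102.8 and 86.04 against 115.1 and 89.59. Their groups overlapped.

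The other 5 genes overlapped at 4 months too. Gpi1 was at 80.31 and 35.87 CPM in white and 45.17 and 38.21 in grey matter, Pgk1 at 23.26 and 6.773 against 11.69 and 4.022, and Ldha at 40.34 and 72 against 94.18 and 52.29. Hif1a was at 61.42 and 96.33 against 94.01 and 84.29, and Egln3, with 4 and 10 counts against 15 and 3, at 1.454 and 2.509 against 2.616 and 0.5485. None of the 10 was called at 4 months in the fit of all 8 libraries (0% of all genes called; 0 of the 10 and 1446 genes at unadjusted p under 0.05, edgeR; DESeq2 called 586 genes, 0 of them among the 10). The median log2 fold change of the 10 was 0.115 with all libraries and -0.11 without white matter replicate 1, and those of Slc2a1 and Aldoa went from 0.93 to -0.02 and from 1.07 to -0.30. With the copies added, the values were 0.26 for Gpi1, 0.93 for Aldoa, -0.125 for Tpi1, 0.87 for Pgk1, -0.08 for Pkm and -0.44 for Ldha, none called. With white matter replicate 1 as the only 4-month white matter library, 4 of the 10 were called, Slc2a1, Gpi1 and Aldoa higher and Hk2 lower, where 23.6% of all genes were called. That fit takes its spread from the other 3 groups, and the lone library is the one with the oligodendrocyte transcripts.

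By the rule for naming further pathway genes, the lowest p at 4 months belonged to Slc2a3 (-1.42 ± 0.514) and Adpgk, an ADP-dependent glucokinase (-1.115 ± 0.383), to Pygl (-1.76 ± 0.432) and the pyruvate dehydrogenase kinase gene Pdk2 (1.73 ± 0.646), to Arnt2, a partner of HIF (4.92 ± 1.31), and Rbx1 (1.25 ± 0.67), and to the HIF targets Car12 (6.17 ± 1.79) and Fam162a (2.30 ± 0.699). None was called (adjusted p from 0.479 to 0.645, edgeR, all 8 libraries). Arnt2 was at 303.8 CPM in white matter replicate 1 and at 13.04 in replicate 2. Without replicate 1, the value of Arnt2 was 1.34, that of Rbx1 0.055, Pdk2 0.65, Fam162a 1.37, Slc2a3 -0.84, Pygl -1.36, Adpgk -1.26 and Car12 6.94. Car12 was at 10.9 and 57.2 CPM in white and 0.5232 and 0.3657 in grey matter, beside summed choroid plexus levels of 5445 and 7312 against 234.8 and 40.22. Slc2a3 and Pygl were lower in white matter at this age too, at 11.99 and 34.87 CPM against 69.59 and 56.68 for Slc2a3 and 6.541 and 12.29 against 36.8 and 27.43 for Pygl. The summed neutrophil level was 231.9 and 532.8 CPM in white and 4234 and 1995 in grey matter at 4 months, and the part of these cells in the values was not tested.

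In white matter, the 21-month libraries lay above both 4-month libraries for 5 of the 10 genes, Tpi1, Pkm, Ldha, Hif1a and Egln3, where 19.8% of all genes did, and 0 lay below, where 15.4% did. With scaling by library size alone, 6 lay above. The 4-month and 21-month values are those given above; for Pkm they were 102.8 and 86.04 against 148.1 and 158.7 CPM. The log2 fold changes with age in the fit of all 8 libraries were 2.61 ± 0.845 for Egln3 (adjusted p = 0.615, edgeR), 0.80 ± 0.344 for Hif1a (adjusted p = 0.617, edgeR) and 0.70 for Pkm (adjusted p = 0.622, edgeR). None of the 10 was called (0% of all genes; 1 of the 10 and 1316 genes at unadjusted p under 0.05; DESeq2 called 425 genes and 0 of the 10). Slc2a1, Gpi1, Aldoa and Pgk1 had values below 0, from -0.04 for Gpi1 to -0.40 for Aldoa.

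Those 4 genes are the ones that were highest in white matter replicate 1 at 4 months. Without that library, 9 of the 10 genes had log2 fold changes above 0, beside 51.9% of all genes, and their median was 0.78, beside 0.02. Tpi1 then had 1.18 ± 0.371, Aldoa 0.98, Pgk1 0.84, Pkm 0.82 ± 0.265, Slc2a1 0.745 and Gpi1 0.64, while Hk2 had -0.10. Egln3 had 2.285, Hif1a 0.500 and Ldha 0.342, each smaller than with all 8 libraries (2.609, 0.799 and 0.709). The fit without replicate 1 has a lone 4-month white matter library, which is assumed to vary like the other groups. None was called (adjusted p = 1 for all 10, edgeR; 5 of them at unadjusted p under 0.05; 0.00571% of 17509 genes called higher). With the copies added and all 8 libraries, the values were 0.04 for Gpi1, -0.37 for Aldoa, 0.62 for Tpi1, -0.007 for Pgk1, 0.665 for Pkm and 0.73 for Ldha. With white matter replicate 1 kept and replicate 2 left out, 2 of the 10, Hk2 and Hif1a, were called higher, where 25.1% of all genes were called; the spread again comes from the other groups.

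Of the further pathway genes named by the rule in white matter aging, none was called (adjusted p from 0.615 to 0.621, edgeR, all 8 libraries). Bhlhe40, a transcription repressor induced by HIF, was at 39.98 and 31.36 CPM at 4 months and at 115.9 and 87.66 at 21 months (log2 fold change 1.51 ± 0.405). Its groups did not overlap. Pfkl, the liver-type phosphofructokinase, had 0.87 ± 0.359 and Pgd, of the pentose phosphate pathway, 0.825, against -1.49 ± 0.618 for the lactate carrier Slc16a1, -1.49 for Pdk2, -1.37 for Elob, -4.43 ± 1.28 for Arnt2 and -5.38 ± 1.73 for Ndrg1. Ndrg1, also a myelin-cell gene, was at 1557 CPM in white matter replicate 1 and 15.3 in replicate 2 at 4 months. Without replicate 1 the value of Ndrg1 was 0.285, that of Slc16a1 -0.29, Pdk2 -0.41, Arnt2 -0.85, Elob -1.10, Pfkl 0.51, Pgd 0.52 and Bhlhe40 1.69.

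In grey matter, 0 of the 10 genes had both 21-month libraries above both 4-month libraries, where 17.2% of all genes did, and 3 had them below, Hk2, Tpi1 and Pkm, where 17.3% did. Hk2 was at 206.9 and 222 CPM at 4 months and 158.5 and 180.6 at 21 months, Tpi1 at 29.13 and 23.77 against 13.67 and 19.82, and Pkm at 115.1 and 89.59 against 79.62 and 87.36. With scaling by library size alone, 2 of the 10 were below. The lowest 4-month value and the highest 21-month value of Pkm were close. All 10 log2 fold changes were below 0 in the fit of all 8 libraries, with a median of -0.25 beside -0.02 for all genes, from -0.02 for Hif1a to -0.66 ± 0.422 for Tpi1 and -1.14 ± 0.915 for Egln3. None was called (adjusted p = 1 for each, edgeR; 0% of all genes called; 0 of the 10 and 119 genes at unadjusted p under 0.05; DESeq2 called 0 genes). Without replicate 1 of 4-month grey matter, 7 of the 10 were above 0 and the median was 0.065. The direction of these 7 thus rests on that library, the one with the highest red blood cell and neutrophil levels. The part of those cells was not tested. Hk2, Tpi1 and Pkm stayed below 0. Leaving out 1 library at a time, they ran from -0.444 to -0.250, -0.958 to -0.418 and -0.463 to -0.107. With the copies added, the values were -0.195 for Gpi1, -0.29 for Aldoa, -0.67 for Tpi1, -0.33 for Pgk1, -0.21 for Pkm and -0.12 for Ldha. The grey matter groups of Pkm then overlapped, at 193.4 and 136.9 CPM at 4 months and 130.7 and 155.5 at 21 months.

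None of the further genes named in grey matter aging was called (adjusted p = 1, edgeR). Values below 0 belonged to the enolase Eno2 (-1.47), Slc16a1 (-0.94), the pyruvate dehydrogenase subunit Pdhb (-0.87), Pgm2 (-0.64), the HIF competitor Cited2 (-0.75), Elob (-0.81), P4ha1 (-0.76 ± 0.316) and Jmjd6 (-0.99 ± 0.424). Without replicate 1 of 4-month grey matter, Pdhb had -0.25, Cited2 -0.12, Elob -0.17 and Jmjd6 -0.47, and without replicate 2 of that group Cited2 had -1.19 and Elob -1.25. Eno2 had -3.18 without replicate 1 and -0.79 without replicate 2 of 21-month grey matter, and Pgm2 -0.96 and -0.405.

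The last comparison set the aging change of white matter against that of grey matter. These values share libraries with the 4 comparisons above. In the fit of all 8 libraries the difference was above 0 for 8 of the 10 genes, and none was called (adjusted p = 1, edgeR; 0% of all genes; 1 of the 10 and 455 genes at unadjusted p under 0.05; DESeq2 called 39 genes and 0 of the 10). Egln3 had 3.75 ± 1.24 (unadjusted p = 0.0183, edgeR), Tpi1 1.33 ± 0.596 (0.0590), Hk2 1.03 and Pkm 0.99 ± 0.444 (0.0582). Tpi1 and Pkm were the genes whose libraries did not overlap between the ages in either region. They were higher at 21 months in white matter, as 19.8% of all genes were, and lower in grey matter, as 17.3% were. The share of all genes with both orders was not counted. With the copies added, this order held for Tpi1 and not for Pkm, whose grey matter groups overlapped. Aldoa and Pgk1 had -0.19 and -0.165, and Gpi1 was at 0.003. With the copies added, the values were 0.24 for Gpi1, -0.075 for Aldoa, 1.285 for Tpi1, 0.32 for Pgk1, 0.87 for Pkm and 0.85 for Ldha.

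Without replicate 1 of 4-month white matter the difference was above 0 for all 10, beside 51.9% of all genes, with a median of 0.99 beside 0.03. Egln3 had 3.42, Tpi1 1.84, Aldoa 1.18, Pkm 1.11 and Slc2a1 1.03, and Hk2 had 0.23. None was called here either. This fit has a lone 4-month white matter library, which is assumed to vary like the other groups. Without replicate 1 of 4-month grey matter, 6 of the 10 were above 0 (median 0.556). It was 6 too without replicate 1 of 21-month white matter (0.672) or replicate 2 of 4-month white matter (0.937). Without any other library it was 8 or 10. Leaving out replicate 2 of 4-month white matter instead, 1 of the 10, Hk2, was called, where 13.6% of all genes were, with the spread taken from the other groups. Among the further genes, Lox had 4.65 ± 1.77, Ldhb 1.325 ± 0.546, Cited2 1.17, Pgd 0.83, Pfkfb2 -0.99, Pdk2 -1.565, Arnt2 -4.27 and Ndrg1 -5.45 in the fit of all 8 libraries, none called (adjusted p = 1, edgeR). Without replicate 1 of 4-month white matter, Lox had 3.71, Ldhb 1.10, Cited2 0.91, Pgd 0.51, Pfkfb2 -1.07, Pdk2 -0.49, Arnt2 -0.70 and Ndrg1 0.200. Without replicate 2, which leaves a 4-month white matter library at 0 for Lox, its fitted value was 10.60, which is no bound.

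**Figure D5:**
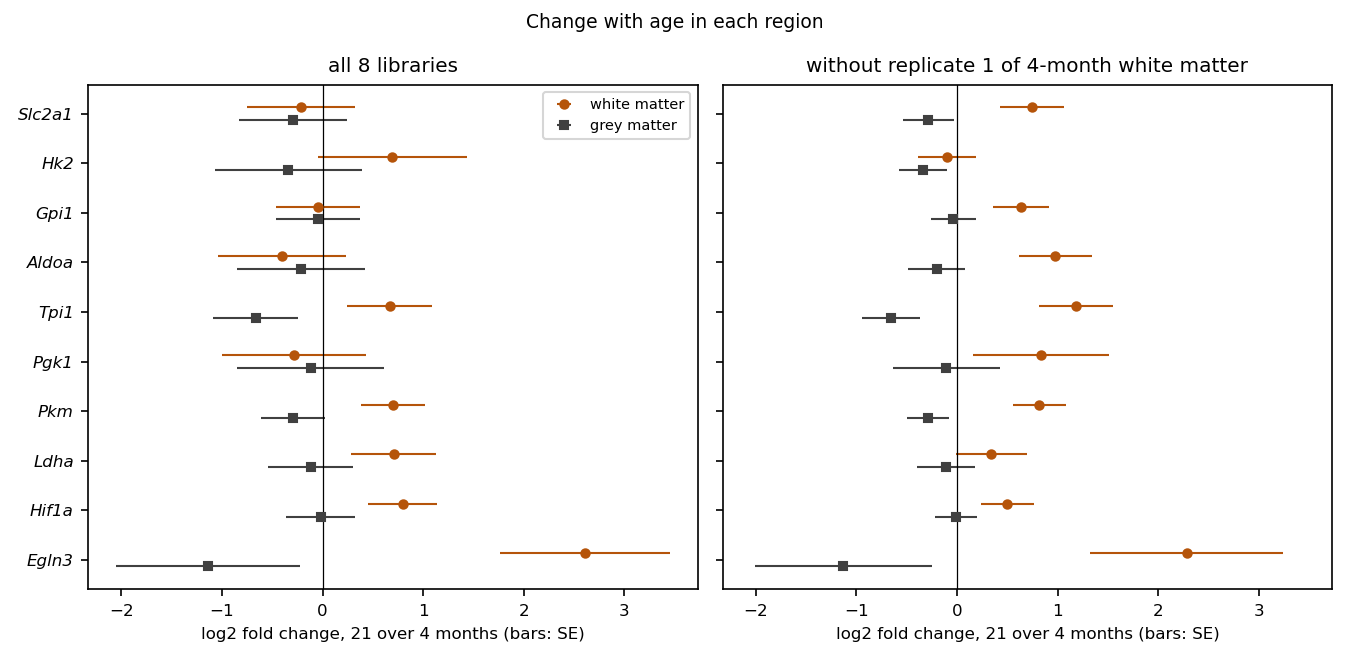
Log2 fold change of 21 over 4 months (x axis) in white matter (orange circles) and grey matter (dark squares) for each gene, with all 8 libraries (left) and without replicate 1 of 4-month white matter (right); bars are standard errors. On the left 6 white matter points lie above 0 and on the right 9, while the grey matter points lie at or below 0 in both panels.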

How the data were processed

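Polyadenylated RNA of the 8 libraries was sequenced on an Ion Proton instrument, per the labels' protocols. The deposited table holds estimated counts per gene symbol, from 15.9% to 17.8% of the values above 0 in a library not being whole within 1e-06; Partek and DESeq2 appear in the submitters' processing notes. The aligner, its build, the gene models and the strand setting were not given in the sources used here. Here the estimated counts were rounded, genes were kept with filterByExpr and libraries scaled by TMM (edgeR 4.0.16, R 4.3.3). The 4 group means were fitted with the robust quasi-likelihood model to all 8 libraries (4 residual degrees of freedom). The 2 groups compared were also fitted alone (2 residual degrees of freedom), and all but replicate 1 of 4-month white matter together. A call needs a p under 0.05 after Benjamini-Hochberg adjustment over all genes tested. Standard errors come from the F statistic. An exact permutation test of 2 libraries against 2 cannot go under 0.333, so no such test was run. DESeq2 1.42.0 served as an alternative. The script was also run on simulated counts with changes set in well-counted genes only, which does not cover low counts such as those of Egln3. Copies were found with BLAST 2.17.0 among GENCODE M21 transcripts, and promoter windows were taken from RefSeq for all 10 genes.

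The 10 genes, the pathway lists and the marker lists were chosen with earlier results of these data known. Named from each pathway list were up to 4 called genes by fold change in each fit or, with none called, the 2 of lowest p in the fit of all libraries.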

Additional observations from a re-analysis of the deposited data

Results flagged for a closer look

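Tpi1 and Pkm had opposite orders of age in the 2 regions. For each gene, both 21-month libraries lay above both 4-month libraries in white matter and below them in grey matter. The nearest grey matter values of Pkm were 89.59 CPM at 4 months and 87.36 at 21 months. With near-identical copies added this order held for Tpi1, while the grey matter groups of Pkm overlapped, at 193.4 and 136.9 CPM at 4 months and 130.7 and 155.5 at 21 months. The aging change of white minus that of grey matter was 1.329 for Tpi1 and 0.994 for Pkm on the log2 scale (edgeR, all 8 libraries). The test of this difference gave an adjusted p of 1 for both genes. Of all genes tested, 19.8% had both 21-month libraries above both 4-month libraries in white matter, and 17.3% had them below in grey matter. The share with both orders was not counted.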

How the results depend on the processing

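At 21 months the 10 genes kept a higher level in white matter under all 25 alternatives, while the calls and the sizes moved. These alternatives draw on the 21-month libraries, whose groups did not overlap for any of the 10, so the kept sign is no independent support. DESeq2 called 1 of the 10 and 48 genes, and no filter on low counts 1 and 147. With the 21-month libraries alone 5 of the 10 and 232 genes were called, with RLE scaling 5 and 232, with DESeq2 4 and 298, without the 2 most abundant transcripts 4 and 220, with no filter 6 and 783, with the copies merged 6 and 233 and with the replicate block 6 and 522. Leaving out 1 library there gave 3 of the 10 and 457 genes without white matter replicate 1, 4 and 415 without white matter replicate 2, 0 and 84 without grey matter replicate 1, and 1 and 144 without grey matter replicate 2. In the fit of all libraries, leaving out 1 library gave from 0 to 19 genes called for white against grey matter at 21 months, from 0 to 4222 genes and from 0 to 4 of the 10 at 4 months, from 0 to 4491 genes and from 0 to 2 of the 10 for aging in white matter, and from 0 to 2422 genes and from 0 to 1 of the 10 for the difference between the aging changes. DESeq2 called 586, 425 and 39 genes in these 3 comparisons and no filter 1113, 963 and 470, with 17 genes for aging in grey matter. The cause was not tested.

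Some log2 fold changes near 0 changed sign. For aging in white matter Gpi1 had 0.049 with no filter, 0.028 with the replicate block and 0.044 with the copies merged. For aging in grey matter Pgk1 had 0.082 with the replicate block, and Hif1a 0.016 with DESeq2 and 0.018 with RLE scaling. For the difference between the aging changes Gpi1 had -0.026 with DESeq2, -0.046 with RLE scaling and -0.001 without the 2 most abundant transcripts, and Pgk1 0.324 with the copies merged. Leaving out 1 library at a time, the values at 4 months ran from -0.024 to 1.471 for Slc2a1, -2.563 to 0.161 for Hk2, -0.198 to 0.914 for Gpi1, -0.296 to 1.740 for Aldoa, -0.613 to 0.258 for Tpi1, -0.188 to 1.859 for Pgk1, -0.300 to 0.057 for Pkm, -0.891 to 0.091 for Ldha, -0.569 to 0.130 for Hif1a and -0.384 to 1.805 for Egln3. For aging in white matter they ran from -0.765 to 0.745 for Slc2a1, -0.103 to 2.610 for Hk2, -0.486 to 0.637 for Gpi1, -1.072 to 0.980 for Aldoa, -0.898 to 0.838 for Pgk1 and -6.338 to 0.285 for Ndrg1. For aging in grey matter they ran from -0.569 to 0.039 for Slc2a1, -0.162 to 0.074 for Gpi1, -0.570 to 0.261 for Aldoa, -0.689 to 0.837 for Pgk1, -0.482 to 0.361 for Ldha, -0.132 to 0.077 for Hif1a and -1.847 to 0.341 for Egln3. For the difference between the aging changes they ran from -0.465 to 1.029 for Slc2a1, -0.435 to 0.674 for Gpi1, -0.854 to 1.181 for Aldoa, -1.102 to 0.945 for Pgk1 and -6.405 to 0.200 for Ndrg1.

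The labels give the replicate numbers no shared source, and same-numbered libraries did not deviate together in every pair of groups: correlations of deviations from the group means ran from -0.141 to 0.415, the highest between the 4-month groups. Replicate 1 had the higher red blood cell sum in each group. With the replicate block in the fit of all libraries 0 of the 10 genes was called in each comparison. Alternatives that merge the copies or restrict another setting to the 21-month libraries were chosen after seeing the data. Egln3 rests on 3 counts in each 21-month grey matter library.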
